A study of Mus musculus with 8 samples.

Results

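The vascular endothelial growth factor (VEGF) family was described here in the left ventricles (LVs) of mice infused with angiotensin II (angII), through the mRNA of its 5 ligand genes (Vegfa, Vegfb, Vegfc, Figf and Pgf), its 3 receptor genes (Flt1, Kdr and Flt4) and its 2 neuropilin genes (Nrp1 and Nrp2). The members were taken from the deposited gene counts by their symbols, 10 of 46040 genes, and all 10 were among the 13542 genes that reached a CPM (a gene's count scaled to the size of its library) of 1 or more in 2 or more libraries. RNA of 8 mice was sequenced, 4 in each of the groups that the library names call WT2 and dVEGFR1TK2. The genotype tag of the WT2 group is wildtype, and the study's controls were littermates of the other group. The genotype tag of the dVEGFR1TK2 group is VEGFR1_TK -/-, an allele of Flt1 that lacks the tyrosine kinase inside the cell in every cell type of the mouse. All 8 mice were male C57BL/6 mice aged 5 to 7 months, and all received angII at 0.1 mg/kg/h from a pump under the skin and were sampled on day 14. No group without angII was analysed here, and both groups held only animals that lived to the day of sampling.

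The labels do not settle the genotypes. The sample titles give the knockout to the WT2 libraries and the control to the dVEGFR1TK2 libraries, while the genotype tags and library names say the opposite. The libraries were grouped by their names, and every difference below is dVEGFR1TK2 against WT2, so each sign turns around if the titles are right. The library names also contain the word cardiomyo, while the tissue label is left ventricle. Markers of several cell types were present: the summed normalised CPM of 8 cardiomyocyte genes was 51244 to 87145, that of 12 endothelial genes 1735 to 2589, and that of 7 fibroblast genes 755 to 2429. Atrial genes stayed at 3.68 to 5.9 and adipocyte genes at 0 to 1.35. The libraries held 11449137 to 16239670 counts. WT2 library 2 had the lowest cardiomyocyte sum (51244) and the highest fibroblast sum (2429) of the 8, and the fold changes of the members that it moved most are given with and without it. At the other end, dVEGFR1TK2 library 3 had the highest cardiomyocyte sum (87145) and the lowest fibroblast sum (755).

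VEGF ligands are secreted growth factors that bind receptor tyrosine kinases, mostly on endothelial cells. VEGF-A binds VEGFR-1 (the product of Flt1) and VEGFR-2 (Kdr), VEGF-B and placental growth factor (Pgf) bind VEGFR-1 alone, and VEGF-C and VEGF-D (Vegfc and Figf) bind VEGFR-3 (Flt4) and, once cut, VEGFR-2. VEGFR-2 carries most of the signal for endothelial growth and permeability, while VEGFR-1 binds VEGF-A tightly with weak kinase activity, and a soluble form of it is made without the kinase. Neuropilins have no kinase of their own and serve as co-receptors for VEGFs and secreted semaphorins. In the heart, cardiomyocytes are a main source of VEGF-A and VEGF-B, and capillary endothelium carries the receptors.

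The deposited value of Flt1 is a single count over all its exons, so the transcripts behind it are shown first. In GENCODE M21 (build GRCm38), Flt1 has 6 transcripts, 2 of them protein coding. The long transcript (Flt1-202) has 30 exons and 3999 coding bases and encodes the full receptor. The short transcript has 13 exons and 2064 coding bases and ends before the kinase. Their first 1972 coding bases are identical. The coding bases 1943 to 2002 are given for both, 5′ to 3′, with the bases after the point of divergence in capitals:
Flt1 long: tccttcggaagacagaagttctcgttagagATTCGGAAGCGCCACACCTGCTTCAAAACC
Flt1 short: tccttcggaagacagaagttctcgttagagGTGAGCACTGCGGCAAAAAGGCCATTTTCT
After this point, the long transcript runs on for 2027 coding bases and the short one for 92. Of the 13504 bases of Flt1 exon, 16.5% belong to both transcripts, 34.6% to the long and not the short one, and 30.1% to the short and not the long one. A whole-gene count therefore pools exons inside and outside the kinase, and it cannot say which library carried the allele.

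The part of the receptors that the allele concerns is the kinase, and its catalytic loop is shown to set the 3 receptors side by side. The 60 coding bases from the start of the loop are given 5′ to 3′, with the 24 bases of the loop motif in capitals:
Flt1 long: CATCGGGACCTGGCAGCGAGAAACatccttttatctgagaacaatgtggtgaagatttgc
Kdr: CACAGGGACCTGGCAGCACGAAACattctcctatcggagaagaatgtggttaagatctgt
Flt4: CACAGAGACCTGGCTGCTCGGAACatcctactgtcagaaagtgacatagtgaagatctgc
These stretches are coding bases 3058 to 3117 of the long Flt1 transcript, 3070 to 3129 of the Kdr transcript and 3103 to 3162 of the Flt4 transcript. Kdr differed from Flt1 at 12 of the 60 bases and Flt4 at 19. The short Flt1 transcript has no such stretch.

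Promoters are shown for Flt1, whose level differed between the groups, and for Kdr, the other VEGF-A receptor. They are the 300 bases from 250 before to 50 after the RefSeq start (GRCm38.p6), 5′ to 3′ on the strand of the gene, which is minus for both. Capitals mark GGAA or its complement TTCC (the core of ETS factor motifs), TATAAA (the TATA box, or TTTATA) and TGACGTCA (the full cAMP response element, a palindrome). Flt1 lies at chr5:147725962-147726261 and Kdr at chr5:75978406-75978705.
Flt1: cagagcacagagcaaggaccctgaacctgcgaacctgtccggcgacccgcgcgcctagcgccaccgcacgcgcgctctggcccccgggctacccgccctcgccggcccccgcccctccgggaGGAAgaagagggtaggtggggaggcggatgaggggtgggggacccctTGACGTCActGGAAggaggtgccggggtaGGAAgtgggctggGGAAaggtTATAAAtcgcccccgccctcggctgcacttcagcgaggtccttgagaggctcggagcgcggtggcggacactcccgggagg
Kdr: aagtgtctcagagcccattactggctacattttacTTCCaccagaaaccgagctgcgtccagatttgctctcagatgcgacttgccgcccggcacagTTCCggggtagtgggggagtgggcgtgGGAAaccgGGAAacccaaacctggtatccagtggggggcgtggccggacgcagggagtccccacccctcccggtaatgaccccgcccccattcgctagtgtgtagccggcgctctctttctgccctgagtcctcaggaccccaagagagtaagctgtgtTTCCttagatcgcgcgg
The Flt1 promoter held 4 GGAA, 1 TATAAA and 1 TGACGTCA, and the Kdr promoter held 5 GGAA and neither of the others. Over all 32851 promoters of the same length, 96% held GGAA, 13.6% TATAAA and 1.79% TGACGTCA on either strand. Of the other members, Figf was the only gene with a TATAAA in its window, and none had TGACGTCA. Both promoters were rich in G and C, at 70.7% for Flt1 and 60.7% for Kdr. These matches describe the letters of the windows, and no binding was measured.

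The level of Flt1 (VEGFR-1, ENSMUSG00000029648, chr5:147561604-147726011, minus strand) was higher in the dVEGFR1TK2 libraries. It had 901, 942, 846 and 1054 counts in WT2 libraries 1 to 4 and 1766, 1680, 2147 and 2109 counts in dVEGFR1TK2 libraries 1 to 4. After normalisation this was 69.3 ± 11.3 CPM (SD, n = 4) against 158 ± 13.2 (SD, n = 4). The highest WT2 library, at 84.3, lay below the lowest dVEGFR1TK2 library, at 144, so the groups did not overlap. The log2 fold change was 1.19 (SE 0.12), a 2.28-fold difference with a 95% interval of 1.89 to 2.74 (edgeR quasi-likelihood test, FDR 0.00808 over all genes tested). Flt1 had the lowest p of all 13542 genes tested and the 12th highest log2 fold change. Its exact 2-sided permutation p of 0.0286 is the smallest that 4 against 4 libraries can give. Because the count covers all exons, the difference cannot be assigned to transcripts with or without the kinase.

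Kdr (VEGFR-2, ENSMUSG00000062960, chr5:75932827-75978458, minus strand), the main signaling receptor for VEGF-A, lies 71.6 Mb from Flt1. It had 150.2, 234, 153 and 169 normalised CPM in the WT2 libraries and 189, 219, 138 and 165 in the dVEGFR1TK2 libraries. The highest value was in WT2 library 2 and the lowest in dVEGFR1TK2 library 3, and the groups overlapped throughout. The fold was 1.01 with a 95% interval of 0.781 to 1.3 (edgeR quasi-likelihood FDR 0.989). Differences within that interval are not excluded at this spread. The interval is that of this gene alone and is not the limit of what the test over all genes could call. Without WT2 library 2 the log2 fold change was 0.18 (FDR 0.741), and without dVEGFR1TK2 library 2 it was -0.11 (FDR 0.973).

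Flt4 (VEGFR-3, ENSMUSG00000020357, chr11:49609263-49652739, plus strand), the receptor of lymphatic vessels that some blood endothelium also makes, had 40.4, 48.1, 36.5 and 40.8 normalised CPM in WT2 and 42.3, 33.8, 33.9 and 37.9 in dVEGFR1TK2. The ranges overlapped, and the log2 fold change of -0.16 (95% interval -0.41 to 0.08) did not pass the test (edgeR quasi-likelihood FDR 0.692). It was -0.09 without WT2 library 2, the highest of the 8. Markers of lymphatic endothelium summed to 102 to 126 normalised CPM in WT2 and 91.9 to 137 in dVEGFR1TK2, and their part in the values of Flt4 was not tested. In these bulk samples, fewer cells of a type and less RNA per cell cannot be told apart.

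**Figure D1:**
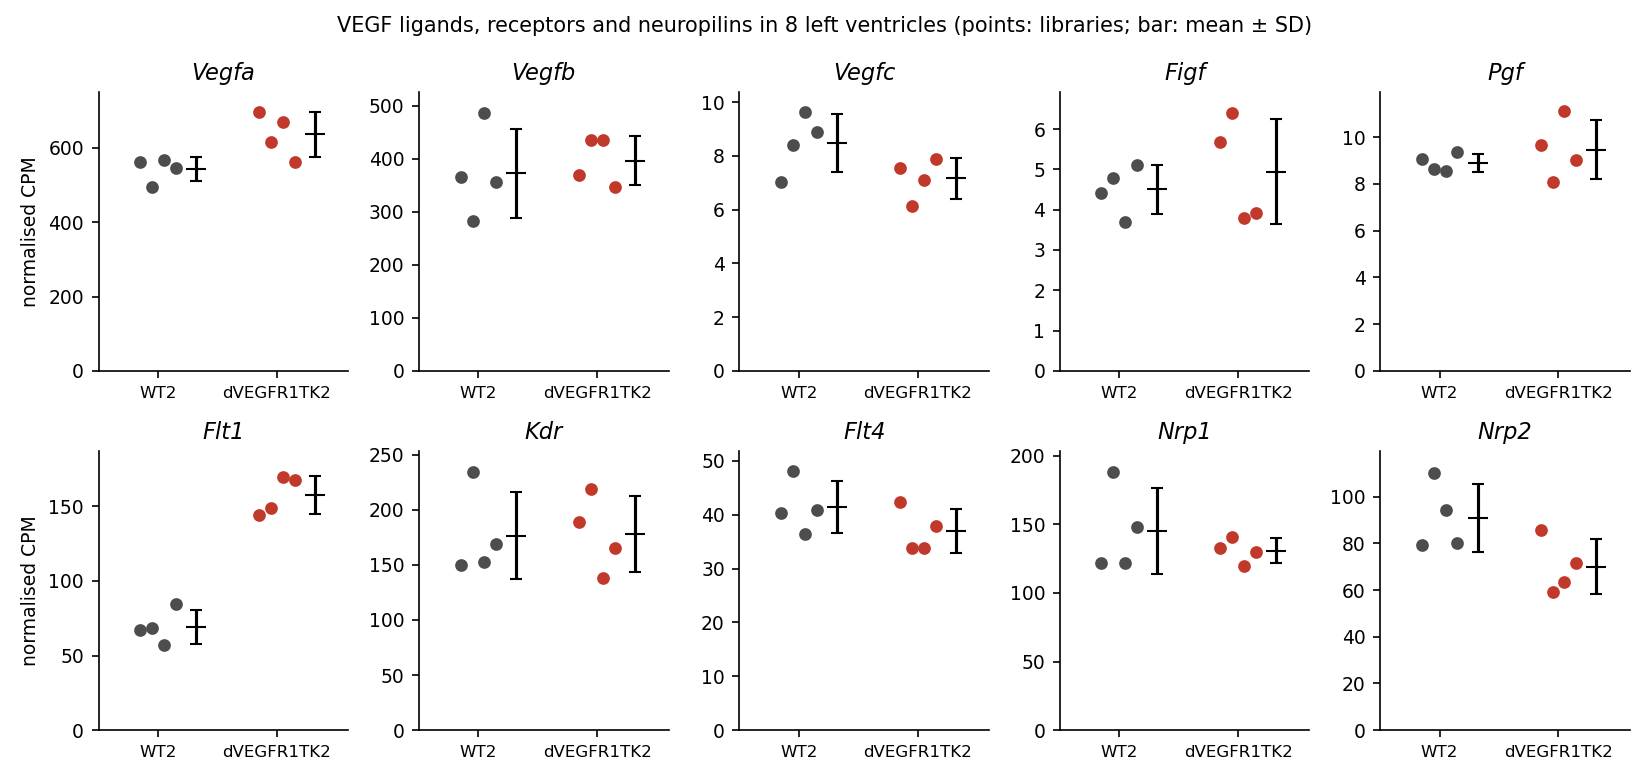
Each panel plots normalised CPM (y axis, from 0) of 1 gene in the 4 WT2 libraries (grey) and the 4 dVEGFR1TK2 libraries (red), with the mean and SD of each group in black. Flt1 is the panel in which no point of one group lies within the range of the other, at 56.9 to 84.3 against 144 to 169.6.

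Nrp1 (ENSMUSG00000025810, chr8:128358604-128503363, plus strand), a co-receptor of VEGF-A on arterial and capillary endothelium, had 122, 188, 122 and 148 normalised CPM in WT2 and 133, 141, 119.6 and 129.8 in dVEGFR1TK2. WT2 library 2 was the highest, as it was for Kdr. The log2 fold change was -0.15 (95% interval -0.44 to 0.15, edgeR quasi-likelihood FDR 0.777), and it was 0.00 without WT2 library 2. The gene of the microRNA Mir1903 lies in Nrp1 on the same strand and shares 80 bases of exon with it.

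Nrp2 (ENSMUSG00000025969, chr1:62703285-62818695, plus strand), a co-receptor of VEGF-C on lymphatic and venous endothelium, had 79.3, 110.1, 94.2 and 80.2 normalised CPM in WT2 and 85.9, 59, 63.3 and 71.8 in dVEGFR1TK2. In dVEGFR1TK2, library 1 lay within the WT2 range and the other 3 below it. On average Nrp2 had 91 ± 14.5 in WT2 and 70 ± 11.8 in dVEGFR1TK2 (SD, n = 4 each), and the log2 fold change was -0.38 (95% interval -0.68 to -0.07). The interval of this gene alone leaves out 0, but the difference did not pass the test over all genes (edgeR quasi-likelihood FDR 0.494, exact permutation p 0.0857). It was -0.27 without WT2 library 2 (FDR 0.648) and -0.49 without dVEGFR1TK2 library 1 (FDR 0.521). The annotated genes Gm29083, antisense, and Gm37121 overlap Nrp2 and share 0 bases of exon with it.

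Vegfa (VEGF-A, ENSMUSG00000023951, chr17:46016993-46032369, minus strand), the ligand of both VEGFR-1 and VEGFR-2, was at the 98.4th percentile of all tested genes by CPM. It had 561, 496, 567 and 545 normalised CPM in WT2 and 698, 615, 669 and 563 in dVEGFR1TK2. In dVEGFR1TK2, library 4 was just under the WT2 maximum of 567 and the other 3 were above it. The fold was 1.17 (95% interval 0.997 to 1.38), which did not pass the test (edgeR quasi-likelihood FDR 0.559, exact permutation p 0.0571).

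Vegfb (VEGF-B, ENSMUSG00000024962, chr19:6982473-6987651, minus strand), a ligand of VEGFR-1, had 366, 282, 486 and 356 normalised CPM in WT2 and 369, 435, 436 and 346 in dVEGFR1TK2. The WT2 libraries held both the lowest and the highest value, and their spread (22.6% of the mean) was wider than that of dVEGFR1TK2 (11.6%). The log2 fold change was 0.09 (95% interval -0.25 to 0.43, edgeR quasi-likelihood FDR 0.892). It was -0.02 without WT2 library 2 and 0.24 without WT2 library 3.

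Pgf (placental growth factor, ENSMUSG00000004791, chr12:85166635-85177790, minus strand), also a ligand of VEGFR-1, had 91 to 141 counts per library. It stood at 9.06, 8.64, 8.54 and 9.36 normalised CPM in WT2 and 9.67, 8.08, 11.1 and 9.01 in dVEGFR1TK2. The dVEGFR1TK2 libraries held both extremes, and the log2 fold change of 0.09 (95% interval -0.20 to 0.38) did not pass the test (edgeR quasi-likelihood FDR 0.864).

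The ligands of VEGFR-3 were low. Vegfc (VEGF-C, ENSMUSG00000031520, chr8:54077606-54187096, plus strand) had 7.04, 8.42, 9.62 and 8.88 normalised CPM in WT2 and 7.56, 6.13, 7.11 and 7.89 in dVEGFR1TK2. WT2 library 1 fell within the dVEGFR1TK2 range, and the log2 fold change of -0.24 (95% interval -0.56 to 0.08) did not pass the test (edgeR quasi-likelihood FDR 0.648). Figf (VEGF-D, ENSMUSG00000031380, chrX:164373378-164402650, plus strand, Vegfd in later annotation) had 4.42, 4.79, 3.7 and 5.12 normalised CPM in WT2 and 5.69, 6.39, 3.79 and 3.91 in dVEGFR1TK2. The dVEGFR1TK2 libraries split into a pair above every WT2 library and a pair within the WT2 range. The log2 fold change was 0.13 (95% interval -0.33 to 0.59, edgeR quasi-likelihood FDR 0.881). With 48 to 72 counts per library, counting error alone was 11.8% to 14.4% of a Figf value.

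Across the family, Flt1 was the 1 member of 10 called (FDR under 0.1 and a change of 1.5-fold or more in either direction), where 0.00738% of all tested genes were called, which is Flt1 itself. It was also the 1 member called by the likelihood ratio test of edgeR and by DESeq2, which called 0.391% and 0.236% of all genes. At an unadjusted p under 0.05, 2 members (Flt1 and Nrp2) were found, 20% of the family, beside 8.96% of all genes (3.32% higher and 5.64% lower). Only Flt1 of the 10 had groups that did not overlap, which was the case for 4.98% of all genes. The other 9 members lay within 0.38 of 0 on the log2 scale. The median log2 fold change was 0.05 for the family and -0.00 for all genes, and the median absolute value was 0.16 and 0.13.

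**Figure D2:**
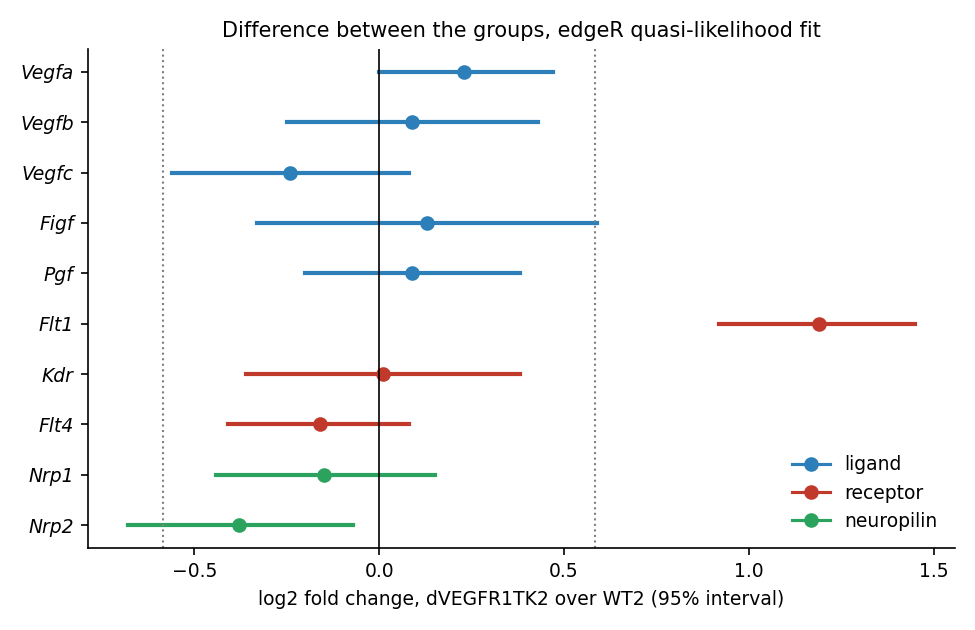
Points are log2 fold changes of dVEGFR1TK2 over WT2 (x axis) of the 10 genes and lines are their 95% intervals from the edgeR quasi-likelihood fit, coloured by role, with dotted lines at a 1.5-fold change in both directions. The interval of Flt1, 0.92 to 1.45, lies beyond the threshold, that of Nrp2, -0.68 to -0.07, lies below 0, and the other 8 include 0.

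Levels of different genes were compared as normalised CPM per kb of exon. Vegfb was the highest member, at 232 ± 52.5 in WT2 and 247 ± 28.6 in dVEGFR1TK2 (SD, n = 4 each), followed by Vegfa at 126 ± 7.52 and 148 ± 13.9. Every receptor and neuropilin was lower than both in each of the 8 libraries. Kdr was at 19.5 ± 4.36 and 19.7 ± 3.83, and Nrp1 at 14.8 ± 3.18 and 13.4 ± 0.89. Kdr was above Nrp1 in 8 of 8 libraries by exon length, but with the length of the longest transcript in its place Nrp1 was above Kdr in 8 of 8, so the order of this pair depends on the length used.

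The rank of Flt1 differed between the groups. Its level per kb of exon was 4.99, 5.06, 4.21 and 6.24 in the WT2 libraries and 10.6, 11, 12.6 and 12.4 in the dVEGFR1TK2 libraries. Nrp2 was at 7.68 ± 1.22 and 5.91 ± 1 on the same scale and Flt4 at 5.03 ± 0.584 and 4.49 ± 0.487. Flt1 thus lay below Nrp2 in 4 of 4 WT2 libraries, with a mean close to that of Flt4 (5.13 ± 0.836), and above Nrp2 in 4 of 4 dVEGFR1TK2 libraries. With the longest transcript as length, Flt1 was above Nrp2 in 1 of 4 WT2 libraries and in 4 of 4 dVEGFR1TK2 libraries. Nrp1 remained above Flt1 by exon length in 7 of the 8 libraries.

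The lowest members were Vegfc, Pgf and Figf. Vegfc was at 3.47 and 2.93 normalised CPM per kb of exon in WT2 and dVEGFR1TK2, Pgf at 3.07 and 3.26, and Figf at 1.87 and 2.05. Vegfc was above Pgf in 4 of 8 libraries by exon length, but with the longest transcript as length Pgf was above Vegfc in 8 of 8, so their order depends on the length used. Pgf was above Figf in 8 of 8.

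**Figure D3:**
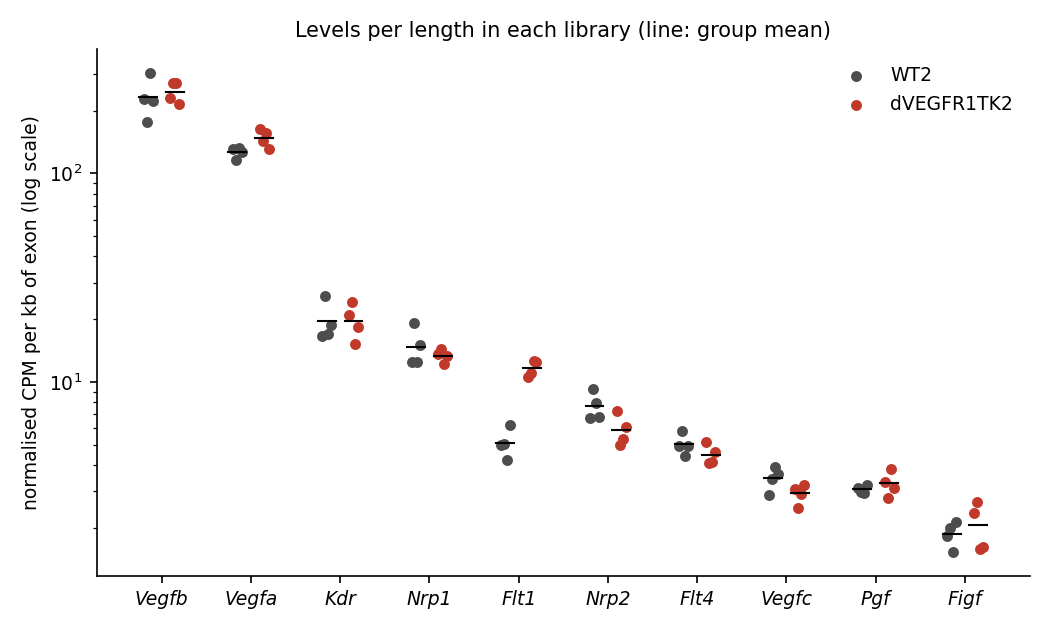
Normalised CPM per kb of exon (log y axis) is plotted for the 10 genes in the 8 libraries, WT2 in grey and dVEGFR1TK2 in red, with a line at each group mean. Vegfb and Vegfa lie highest, Figf lowest, and Flt1 is the gene whose groups are apart, at 4.21 to 6.24 against 10.6 to 12.6.

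Seen as shares per length, Vegfb made up 57.2% to 68.3% of the ligand mRNA (median 62.1%) over the 8 libraries and Vegfa 29.8% to 40.6% (median 35.7%). Vegfc, Pgf and Figf took at most 1.15%, 0.992% and 0.663%. The share of Vegfb differed by -1.64 percentage points between the groups (exact permutation p 0.571) and that of Vegfa by 1.92 points (exact permutation p 0.429). These differences moved with single libraries of either group. For Vegfb the value was -3.02 without WT2 library 2, 0.197 without WT2 library 3 and -0.352 without dVEGFR1TK2 library 1. For Vegfa it was 3.15, 0.232 and 0.679 in the same order. The 5 ligands summed to 299.9 to 443 normalised CPM per kb in WT2 and to 355 to 436 in dVEGFR1TK2, a difference of means of 36.8, which was 14.4 without WT2 library 2 and 62.3 without WT2 library 3.

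Of the receptor mRNA per length, Flt1 took 18.8%, 13.7%, 16.5% and 20.9% in the WT2 libraries and 29%, 28%, 39.3% and 35.2% in the dVEGFR1TK2 libraries. The means were 17.5% ± 3.07 and 32.9% ± 5.34 (SD, n = 4 each), without overlap (exact permutation p 0.0286, 0.0524 after Benjamini-Hochberg adjustment over 11 quantities). The share of Kdr was 65.4% ± 3.71 and 54.6% ± 6.01 and that of Flt4 17.1% ± 1.14 and 12.6% ± 1.52, both without overlap. By exon length, Kdr had the largest share in all 8 libraries, at 47.8% or more, while by the longest transcript Flt1 exceeded Kdr in dVEGFR1TK2 library 3. The 3 receptors summed to 25.6 to 36.8 normalised CPM per kb in WT2 and to 32 to 39.4 in dVEGFR1TK2, with overlap. These shares rest on the same counts of Flt1 as its fold change and are not separate support for it.

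**Figure D4:**
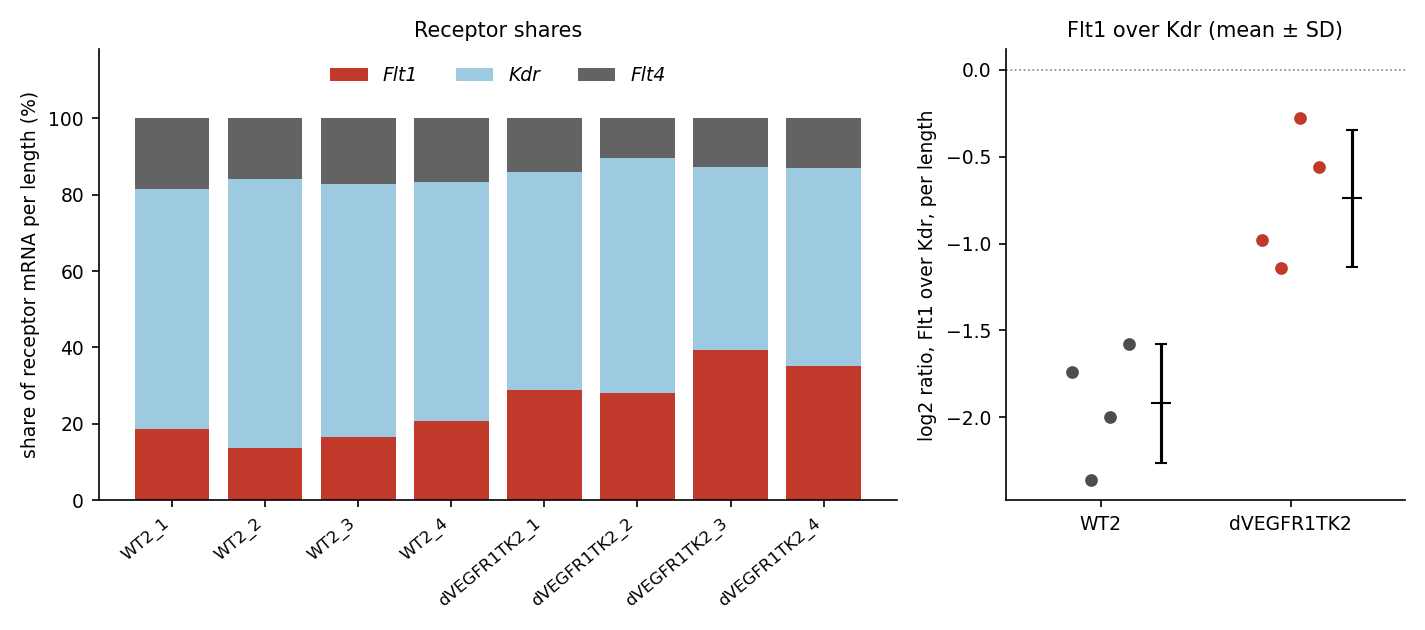
On the left, stacked bars give the share of Flt1, Kdr and Flt4 in their summed level per length (%) in each library, and on the right, points give the log2 ratio of Flt1 over Kdr per length, with the mean and SD of each group. The ratio is -2.36 to -1.58 in WT2 and -1.14 to -0.28 in dVEGFR1TK2.

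Per length, the log2 ratio of Flt1 over Kdr was -1.74, -2.36, -2.0 and -1.58 in WT2 and -0.98, -1.14, -0.28 and -0.56 in dVEGFR1TK2. This corresponds to 0.264 Flt1 per Kdr in WT2 and 0.599 in dVEGFR1TK2, a log2 difference of 1.18 (exact permutation p 0.0286, adjusted 0.0524). Kdr was above Flt1 in 8 of 8 libraries by exon length and in 7 of 8 by the longest transcript, the exception being dVEGFR1TK2 library 3. With single libraries left out, the log2 difference ran from 1.03 without dVEGFR1TK2 library 3 to 1.31 without dVEGFR1TK2 library 2. Without WT2 library 2 it was 1.04. The ratio of Vegfa over Flt1 was 24.9 in WT2 and 12.7 in dVEGFR1TK2. The ratio of the 3 VEGFR-1 ligands together (Vegfa, Vegfb and Pgf) over Flt1 was 70.5 and 34.2. Both ligand ratios had groups without overlap (exact permutation p 0.0286, adjusted 0.0524, for each). Like the receptor shares, the ratios with Flt1 rest on the same counts of Flt1 and are not separate support for its fold change. The adjusted value of 0.0524 is common to the receptor shares and the ratios with Flt1, which are not independent of each other. The ratio of Nrp1 over Nrp2 was 1.91 in WT2 and 2.28 in dVEGFR1TK2, with overlap (exact permutation p 0.2, adjusted 0.275). These are ratios of mRNA, and the proteins were not measured here.

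VEGF receptors sit mainly on endothelial cells, so the receptors and neuropilins were also set against 12 endothelial marker genes measured in the same libraries. The marker mean was lower in dVEGFR1TK2: the mean log2 normalised CPM was 6.98, 7.20, 7.28 and 7.14 in WT2 and 6.94, 6.74, 6.87 and 6.84 in dVEGFR1TK2, a difference of -0.30 without overlap. All 12 had a fold change below 0, none passed the test over all genes, and 7 had an unadjusted p under 0.05 (58.3%, beside 5.64% of all genes for lower values). They ranged from Eng, an endothelial co-receptor of TGF-beta, at a mean of 420.0 normalised CPM, to Erg, an ETS factor, at 36.9. Markers of pericytes and smooth muscle (1368 to 1953 in WT2 and 983 to 1496 in dVEGFR1TK2) and of macrophages (411 to 537 and 274 to 418) were also lower on average, with overlap. For pericytes and smooth muscle, 6 of 7 genes were below 0, 3 of them at an unadjusted p under 0.05 (42.9%). For macrophages, 7 of 7 were below 0, 1 of them at an unadjusted p under 0.05 (14.3%). The median log2 fold changes were -0.43 and -0.31, beside -0.28 for the endothelial markers. The summed fibroblast markers were 1536 to 2429 in WT2 and 755 to 2004 in dVEGFR1TK2, with a fold change below 0 for 7 of 7 genes (median log2 fold change -0.22). Red blood cell genes were at 309 to 766 and 359 to 601, below 0 for 5 of 5 (median -0.37), and cardiomyocyte markers at 51244 to 78053 and 65682 to 87145, above 0 for 6 of 8 (median 0.18), 2 of them at an unadjusted p under 0.05. None of these genes passed an FDR under 0.1. The part of these cell types in the values of the members was not tested.

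Relative to the endothelial markers, Flt1 was at -0.90, -1.10, -1.45 and -0.74 on the log2 scale in WT2 and at 0.22, 0.49, 0.54 and 0.55 in dVEGFR1TK2. Flt1 was thus below the marker mean in every WT2 library and above it in every dVEGFR1TK2 library. The difference of 1.5 (2.82-fold) was larger than that of Flt1 alone, since the markers moved the other way (exact permutation p 0.0286, 0.143 after adjustment over 5 genes, the smallest adjusted value 1 gene alone can reach here). Kdr was 0.32 higher relative to the markers (exact permutation p 0.286), Nrp1 0.18 higher (exact permutation p 0.343) and Flt4 0.14 higher (exact permutation p 0.314), all with overlap. Without WT2 library 2 these values were 0.45, 0.29 and 0.20, and without WT2 library 3 they were 0.21, 0.06 and 0.04. Nrp2 was at -0.08 on this scale (exact permutation p 0.514), and at 0.00 without WT2 library 2. Beside the difference of the marker mean (-0.30), the log2 fold changes were -0.38 for Nrp2, -0.16 for Flt4, -0.15 for Nrp1, 0.01 for Kdr and 1.19 for Flt1. The part of endothelial content in these values was not tested.

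**Figure D5:**
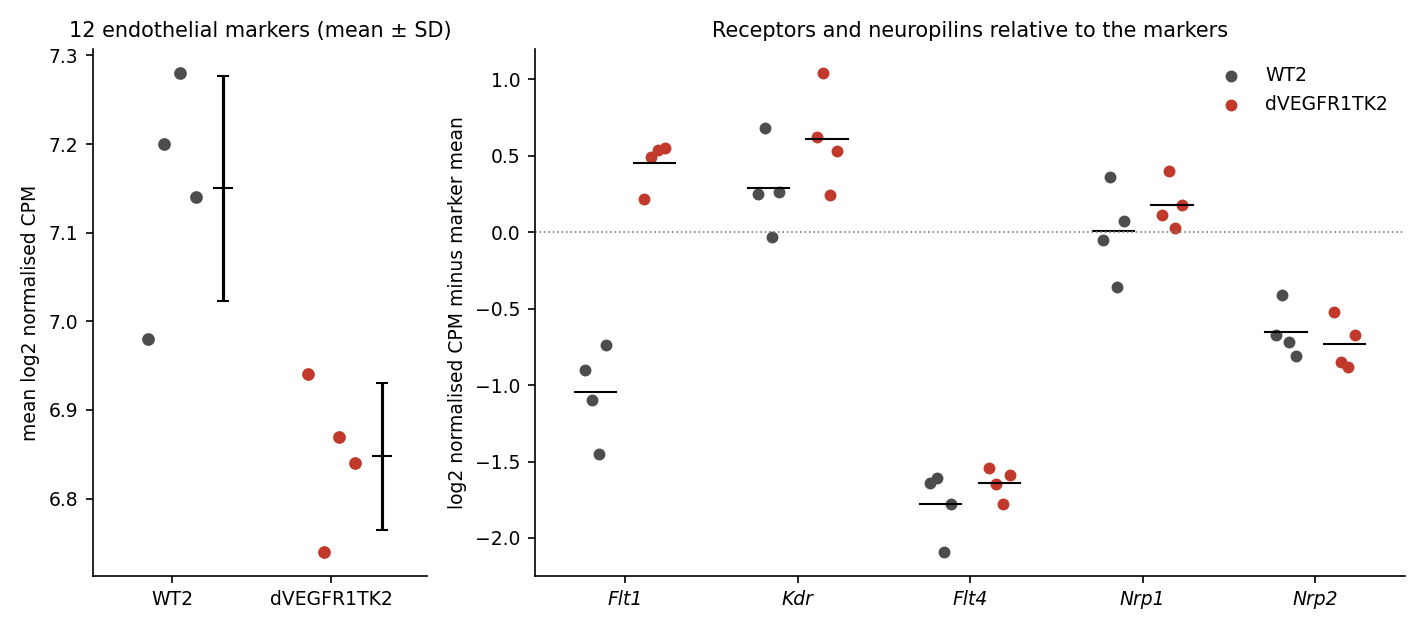
The left panel gives the mean log2 normalised CPM of 12 endothelial markers in each library with the mean and SD of each group, on an axis that does not start at 0, and the right panel the log2 normalised CPM of each receptor and neuropilin minus that mean, with a line at the group means. Flt1 lies at -1.45 to -0.74 in WT2 and at 0.22 to 0.55 in dVEGFR1TK2, and the groups of Kdr, Flt4, Nrp1 and Nrp2 overlap.

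The genes around the receptors were counted in 6 lists with 123 genes, all of them tested. None passed an FDR under 0.1 in the edgeR quasi-likelihood fit. In the counts that follow, higher and lower are genes at an unadjusted p under 0.05. At an unadjusted p under 0.05, 24 genes were found, 4 higher and 20 lower in dVEGFR1TK2. They are 19.5% of the lists, beside 8.96% of all genes (3.32% higher and 5.64% lower). Over the lists, 90 genes had a fold change below 0 and 33 above it, with a median of -0.11, beside 6816 and 6726 of all genes and a median of -0.00. Of the 12 endothelial markers, 2 (Cdh5 and Erg) are in these lists, and the lower level of endothelial markers given above moved with them; its part in the lists was not tested.

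Of 21 genes that VEGF is known to induce in endothelium, 6 were lower and 0 higher (28.6%, beside 5.64% of all genes for lower values). The median log2 fold change of the list was -0.29. Cxcr4, a chemokine receptor, was at 17.2 ± 4.14 normalised CPM in WT2 and 9.71 ± 2.24 in dVEGFR1TK2 (SD, n = 4 each), a log2 fold change of -0.83 (SE 0.20, edgeR quasi-likelihood FDR 0.442). Dll4, the Notch ligand of tip cells, was at 52.6 ± 8.67 and 41.3 ± 3.54 (log2 fold change -0.35, FDR 0.486). The other 4 were Esm1, Hey1, Plau and Rcan1. With the likelihood ratio test and with DESeq2, Cxcr4 came under an FDR of 0.1 (0.0587 and 0.0642).

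Of 15 genes that release or bind the ligands, 4 were lower and 0 higher (26.7%, beside 5.64% of all genes for lower values). The median of the list was -0.23. Ctgf, a matrix protein that binds VEGF-A, was at 349.7 ± 91 and 181 ± 64.2 normalised CPM (SD, n = 4 each), a log2 fold change of -0.95 (SE 0.25, edgeR quasi-likelihood FDR 0.442, and 0.0587 with the likelihood ratio test). Hspg2, the heparan sulfate proteoglycan perlecan, was at 971 ± 179 and 736 ± 30.5, a log2 fold change of -0.40 without overlap of the groups (FDR 0.468). The others were Plau and Plat, the plasminogen activators. Adamts3 and Ccbe1, which cut pro-VEGF-C and help to do so, had log2 fold changes of -0.32 and 0.45 (FDR 0.733 and 0.616).

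Of 18 partners of the receptors at the membrane, 3 were lower and 0 higher (16.7%, beside 5.64% of all genes for lower values). The median of the list was -0.07. Cdh5, the cadherin of endothelial junctions that binds VEGFR-2, had a log2 fold change of -0.38 and Cav1, the caveolae protein, one of -0.37 (edgeR quasi-likelihood FDR 0.464 for both). Ephb4, a receptor of ephrin-B2, was the third. Ptprb, the phosphatase that acts on VEGFR-2, had -0.18 (FDR 0.756). Of 37 genes of downstream signaling, 4 were lower and 1 (Grb2) higher (13.5% in either direction, beside 8.96% of all genes). The median of the list was -0.08. Among the lower genes were Ptk2 (focal adhesion kinase, -0.30), Nos3 (endothelial nitric oxide synthase, -0.32) and Vav2 (-0.30), and Plcg1, the phospholipase that VEGFR-2 activates, had -0.08 (FDR 0.863).

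Of 22 regulators of VEGF and receptor transcription, 3 were higher and 1 (Erg) lower (18.2% in either direction, beside 8.96% of all genes). The median of the list was -0.08. Ppargc1a, the coactivator PGC-1alpha that induces Vegfa in muscle, was at 94.7 ± 20.2 and 139 ± 17.6 normalised CPM (SD, n = 4 each), a log2 fold change of 0.55 without overlap (SE 0.15, edgeR quasi-likelihood FDR 0.442). Egln1, an oxygen sensor that marks HIF subunits for decay, was at 503 ± 37.6 and 622 ± 46, also without overlap (log2 fold change 0.31, FDR 0.468), and Egln3 had 0.52 (FDR 0.529). Hif1a and Epas1, the HIF subunits themselves, had 0.06 and -0.18 (FDR 0.936 and 0.719). Of 11 semaphorins and plexins, which share the neuropilins, Plxna1 (-0.24), Plxnd1 (-0.37) and Sema3f (-0.25) were lower and 0 higher. This is 27.3%, beside 5.64% of all genes for lower values, and the median of the list was -0.15.

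The members also varied within the groups. The biological coefficient of variation of the fit was 11.6% for Vegfa, 11.8% for Flt4 and 12% for Pgf at the low end and 17.4% for Kdr and 18.1% for Figf at the high end, where the median of all genes was 14%. Over the 8 libraries, 45 pairs of members were correlated, 8 had an exact permutation p under 0.05, and no pair passed adjustment over the 45. Kdr with Nrp1 had the lowest p, with a Pearson r of 0.83 (exact permutation p 0.00556, adjusted 0.17) and a Spearman rho of 0.90 (exact permutation p 0.00456, adjusted 0.205). Without the 2 libraries farthest from the median of Kdr, r was 0.69, and after the group means were subtracted it was 0.88. Flt4 with Nrp2 also had an r of 0.83 (exact permutation p 0.0114, adjusted 0.17). It was 0.52 without the extreme pair and 0.77 after the group means, and rho was 0.76 (exact permutation p 0.0368, adjusted 0.347). Vegfb and Flt4 ran in opposite directions, with r of -0.86 (exact permutation p 0.00779, adjusted 0.17), rho of -0.69 (exact permutation p 0.0694, adjusted 0.347), r of -0.84 without the extreme pair and -0.88 after the group means. Because the values of Flt1 fall into separate groups, no pooled correlation is given for it. Flt1 with Nrp2 is among the 8 pairs above, and after the group means its r was -0.38. All pairs share the same 8 libraries and their scaling.

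Single endothelial markers did not follow Kdr closely: after the group means were subtracted, their r with Kdr ran from -0.46 (Tie1) to 0.44 (Erg) over the 8 libraries. The tested genes most like Kdr by this measure were Rpgrip1l (0.992), Cspp1 (0.982), Dcaf17 (0.980), Tpgs2 (0.977) and Tpst1 (0.977). For Flt1 they were Mfap1a (0.985), Eea1 (0.976), Zfp189 (0.966), Lemd3 (0.964) and Zfand5 (0.962). For Vegfb they were Rnf123 (0.999), Mdh2 (0.996), Timm8b (0.994), Map1lc3b (0.991) and Camk2a (0.991), and for Vegfa Banp (0.986), 3632451O06Rik (0.982), Zfp747 (0.981), 2210018M11Rik (0.956) and Dnase1l2 (0.948). These are the highest values among 13542 genes over 8 libraries and describe these libraries only.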

How the data were processed

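Per the submitters' processing notes and the study's methods, bcl2fastq 2.20.0.422, Trim Galore 0.4.4, STAR 2.5.4b and featureCounts were used on GRCm38 with GENCODE M16, and the authors deposited raw gene counts (whole numbers) of 8 LV libraries. The labels name ribosomal RNA depletion, while the methods name poly-A selection. How the counting treated strand and reads that align to several places is not given in the sources used here, so antisense or paralog reads may be included.

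Members, gene lists and tests were chosen with earlier results of these data known. The 13542 genes that reached 1 CPM in 2 or more libraries were fitted in edgeR 4.0.16 (R 4.3.3; glmQLFit and glmQLFTest, the quasi-likelihood test), with TMM factors (0.917 to 1.12), 4 against 4 libraries and no covariates. P-values were adjusted over all tested genes by Benjamini-Hochberg (FDR), and a call needed an FDR under 0.1 with a change of 1.5-fold or more. Log2 values of normalised CPM had a prior count of 2. Permutation tests were exact and 2-sided (70 permutations of the group labels; Python 3.11.15, scipy 1.17.1). Lengths, positions and coding sequences came from GENCODE M21 (GRCm38), which held 45105 of the 46040 identifiers, and promoters from RefSeq. Named genes were the members, the 2 genes of each list with the lowest p, overlapping genes, and the 5 genes most like Flt1, Kdr, Vegfa and Vegfb. Other list genes at an unadjusted p under 0.05 and 6 well known partners or regulators were named after their values were seen, and 1 list gene is not reported here. Tried as alternatives were DESeq2 1.42.0, the likelihood ratio test of edgeR, robust dispersions, RLE factors, total counts, other filters and thresholds, other lengths and marker lists, each library left out, the replicate number as a block and the grouping by titles. The test was checked on simulated counts. Each library was counted as a sample, with n = 4 per group as the study states. Within a group, the counts of any pair of libraries differed by a chi-square of 7.17 to 54.2 per degree of freedom, above sampling noise. That spread alone cannot tell separate mice from separate preparations of the same RNA.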

Additional observations from a re-analysis of the deposited data

How the results depend on the processing

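By library name, Flt1 stayed at a log2 fold change of 1.10 to 1.29 with an FDR of 2.56e-15 to 0.0846 over 17 alternatives, and it was the 1 member called in each of them. The other 9 members passed in none. The number of genes called over the whole table was 1 and rose to 53 with the likelihood ratio test, 32 with DESeq2, 23 without a filter on low counts, 1 to 3 with a library left out (2 without WT2 library 1, 3 without WT2 library 2, 3 without WT2 library 4) and 2 without library 2 of both groups. The number of list genes under an FDR of 0.1 was 0 and became 2 (Ctgf and Cxcr4) with the likelihood ratio test, with DESeq2 and without a filter.

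Grouping by the sample titles turned every sign: Flt1 -1.19, Kdr -0.01, Flt4 0.16, Nrp1 0.15, Nrp2 0.38, Vegfa -0.23, Vegfb -0.09, Vegfc 0.24, Figf -0.13 and Pgf -0.09. Among log2 fold changes near 0, Kdr changed sign with total counts (-0.02), and with single libraries left out it ran from -0.11 to 0.18, below 0 without WT2 library 1, 3 or 4 or dVEGFR1TK2 library 1 or 2. Vegfb became -0.02 without WT2 library 2 and -0.07 without library 2 of both groups, Figf -0.01 without dVEGFR1TK2 library 2 and Nrp1, which ran from -0.22 to 0.00, 0.00 without WT2 library 2. Relative to Kdr in place of the endothelial markers, a choice made after seeing the data, Flt4 was -0.18 and Nrp1 -0.14, and Nrp2 was -0.39 without overlap. The cause of these changes was not tested.

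The replicate numbers showed no clear pairing. Deviations of same-numbered libraries correlated at -0.055 to 0.343 and those of differently numbered ones at -0.494 to 0.302. Of the 8 libraries, 2 correlated best with their own number. With 4 libraries per group, these values cannot settle whether the samples were paired. With the replicate number as a block, Flt1 had a log2 fold change of 1.20 (edgeR quasi-likelihood FDR 0.0127), 1 member and 1 gene of the table were called, and a permutation within numbers cannot go below 0.125. The depth limits Figf, Vegfc and Pgf most, and a 4 against 4 permutation cannot go below 0.0286. Nothing says whether the samples of a group were taken or prepared together. The numbers that open the library names run in order of group, with WT2 first and a gap within the dVEGFR1TK2 numbers. What the gap stands for is not given. If the samples of a group were handled together, group and handling cannot be told apart. The p-values set the groups against the spread between these samples and do not account for that.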
